A study of Mus musculus with 10 samples.

Results

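The 10 genes described here encode the proteins of perineuronal nets and of the diffuse matrix of the brain, and they were taken as a named set of 10 of the 29883 genes in the deposited count table. They comprise the lecticans Acan, Bcan, Ncan and Vcan, the link proteins Hapln1, Hapln2 and Hapln4, the tenascins Tnr and Tnc, and the receptor phosphatase Ptprz1. All 10 were found in the table by their Ensembl gene IDs. The choice used no measured value, although earlier results of these data were known when it was made. The nucleus accumbens (NAc) of the ventral striatum was collected from 5 C57BL/6J (B6) and 5 DBA/2J (D2) mice, all male, ethanol-naive, without any treatment and killed at 9 weeks of age. B6 and D2 are inbred strains that differ in their behavior toward ethanol, and the comparison asks how basal expression in the NAc differs between them. The tissue was cut out as punches or wedges from coronal slices, and 1 poly-A library was sequenced per mouse, so each replicate is a separate animal of 1 inbred genotype.

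Perineuronal nets are dense coats of matrix that surround the cell body and dendrites of certain neurons, best known on the parvalbumin interneurons of cortex and striatum. Their backbone is the sugar polymer hyaluronan, to which the chondroitin sulfate proteoglycans of the lectican family bind at one end. Link proteins clamp each lectican to hyaluronan, and tenascin-R ties the free ends of the lecticans together. The same proteins also build a looser matrix around synapses and at the nodes of Ranvier, the gaps in the myelin sheath.

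Between 96977262 and 116776714 reads per library were counted on genes. Levels are given in CPM, which scale each count to the size of its library, after TMM normalization, and log2 fold changes are D2 minus B6, so a negative value is lower in D2. Across all genes, 18.3% passed an adjusted p of 0.05 in edgeR's quasi-likelihood test with Benjamini-Hochberg adjustment, 8.5% higher and 9.83% lower in D2, and the share was 23.8% among the 15388 genes whose counts averaged 100 or more, as those of all 10 matrix genes did. B6 replicates 3 and 5 stood apart from the other B6 mice. Summed over 10 markers of cortex neurons, they reached 1054 and 1069 CPM, against 234 to 319 in the other B6 mice and 372 to 744 in the D2 mice. Their counts differed from each other by a mean chi-square of 4.89 per gene, beyond sampling noise, against 17.5 to 119 for the other pairs of mice within a strain, so they were kept as 2 animals. Results that rest on these libraries are given with and without them. Reads of both strains had been aligned to the B6 genome, so D2 reads with several D2 alleles can be lost more easily, and the part of this in the differences below was not tested.

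Of the 10 genes, 1 was higher in D2 (Tnc), 3 were lower (Ncan, Bcan and Hapln2) and 6 did not pass the test. The median log2 fold change of the 10 was -0.07, against 0.00 over all genes tested. Their levels in the 5 B6 and the 5 D2 mice did not overlap for 2 of the 10, Ncan and Tnc, beside 16.0% of all genes. Per kilobase of exon, the levels in both strains spanned a wide range, from Bcan and Ncan at the top to Acan and Tnc at the bottom.

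**Figure D1:**
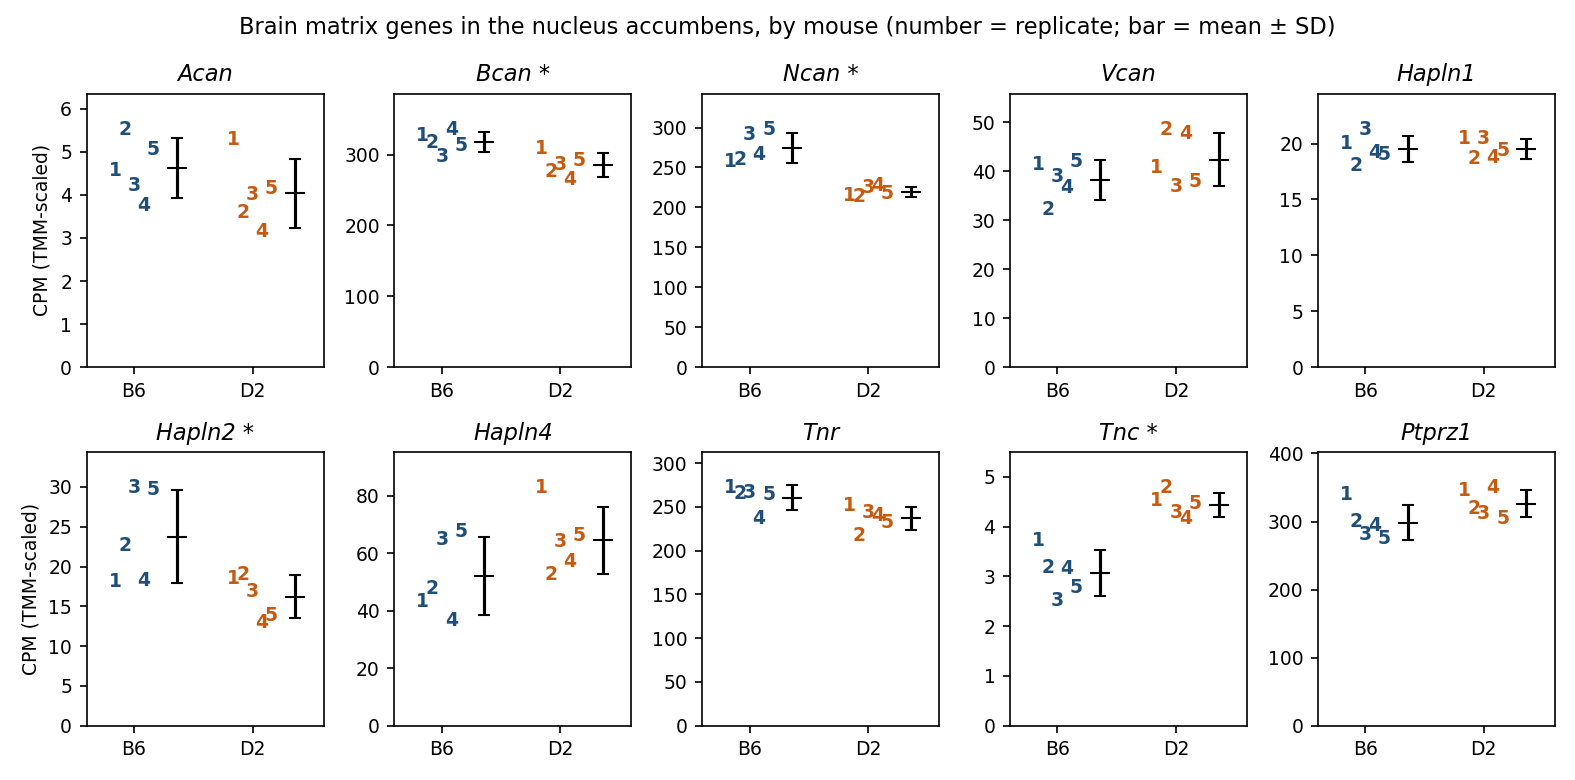
CPM (y axis, from 0) of each of the 10 matrix genes in the 5 B6 mice (blue) and the 5 D2 mice (orange). Digits are the replicate numbers, bars give the mean ± SD, and an asterisk marks an adjusted p under 0.05 (edgeR). The 5 D2 mice lie below all B6 mice for Ncan and above all B6 mice for Tnc, whereas the strains overlap for the other 8 genes.

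Ncan, which encodes neurocan, a lectican made almost only in the nervous system, was lower in D2. Ncan (ENSMUSG00000002341, chr8:70538926-70573523, minus strand, GRCm39) was measured at 257, 260, 291, 267 and 298 CPM in B6 replicates 1 to 5, and at 214, 213, 225, 227 and 218 CPM in D2 replicates 1 to 5. Every D2 mouse was below every B6 mouse, and the 2 highest B6 mice were the 2 libraries with the most cortex marker RNA. The D2 mean was 20.1% below the B6 mean, a log2 fold change of -0.32 ± 0.046 (SE, adjusted p = 0.000248, edgeR quasi-likelihood test with Benjamini-Hochberg adjustment). The difference passed the threshold whichever of the 10 mice was left out, and it was -0.25 (adjusted p = 0.000198, edgeR) without B6 replicates 3 and 5.

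Bcan encodes brevican, the smallest lectican and a component of both nets and perisynaptic matrix. Bcan (ENSMUSG00000004892, chr3:87894835-87910177, minus strand) stood at 326, 317, 297, 336 and 313 CPM in the B6 mice and at 309, 276, 286, 265 and 291 CPM in the D2 mice. Of the 5 D2 mice, 4 lay below the B6 range, and D2 replicate 1 lay inside it. The log2 fold change was -0.16 ± 0.046 (SE, adjusted p = 0.0333, edgeR), a difference of 10.3% between the means. This call was held narrowly. It was kept without B6 replicates 3 and 5 together (-0.20, adjusted p = 0.0112, edgeR), but it was lost in 7 of the 10 fits with 1 mouse left out, where those 7 values lay between -0.13 and -0.16 (without B6 replicate 1, 2 or 4, or D2 replicate 2, 3, 4 or 5; adjusted p from 0.0540 to 0.0850).

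The other lecticans did not pass the test. Acan encodes aggrecan, the proteoglycan by which perineuronal nets are usually recognised, and it was scarce in this tissue. Acan (ENSMUSG00000030607, chr7:78702964-78764847, plus strand) was at 4.57, 5.53, 4.21, 3.75 and 5.06 CPM in B6 and at 5.28, 3.59, 4.00, 3.14 and 4.15 CPM in D2, from 361 to 622 reads per library. The strains overlapped, with D2 replicate 1 near the top of the B6 range and D2 replicate 4 lowest of all, and the log2 fold change was -0.20 ± 0.14 (SE, adjusted p = 0.399, edgeR). Vcan encodes versican, a large lectican of the diffuse matrix. Vcan (ENSMUSG00000021614, chr13:89803431-89890814, minus strand) was at 41.4, 32.2, 39.0, 36.6 and 42.1 CPM in B6 and at 40.7, 48.6, 36.9, 47.8 and 37.9 CPM in D2. D2 replicates 2 and 4 exceeded the B6 range and the other D2 mice lay within it, with a log2 fold change of 0.15 ± 0.091 (SE, adjusted p = 0.319, edgeR).

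Among the link proteins, Hapln1 hardly differed between the strains, and Hapln2 and Hapln4 had log2 fold changes of opposite sign. Hapln1 encodes the link protein of cartilage and of the nets of many brain regions. Hapln1 (ENSMUSG00000021613, chr13:89686581-89759950, plus strand) was at 19.98, 18.1, 21.3, 19.2 and 19.0 CPM in B6 and at 20.4, 18.6, 20.5, 18.8 and 19.4 CPM in D2, so that the D2 mice lay within the B6 range. The log2 fold change was 0.00 ± 0.051 (SE, adjusted p = 0.981, edgeR), and its sign turned in 5 of the 10 fits with 1 mouse left out, between -0.02 and 0.03.

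Hapln2 encodes the link protein found at the nodes of Ranvier, which is made by oligodendrocytes, and it was lower in D2. Hapln2 (ENSMUSG00000004894, chr3:87926800-87934890, minus strand) was at 18.2, 22.6, 29.9, 18.3 and 29.7 CPM in B6 and at 18.5, 19.0, 16.8, 13.02 and 13.8 CPM in D2. The 2 highest values were those of B6 replicates 3 and 5, B6 replicates 1 and 4 lay among the D2 mice, and 3 D2 mice lay below the B6 range. The log2 fold change was -0.55 ± 0.16 (SE, adjusted p = 0.0301, edgeR). The call was lost without B6 replicates 3 and 5 (-0.28, adjusted p = 0.146, edgeR), and it was also lost when B6 replicate 3 or 5 or D2 replicate 3, 4 or 5 alone was left out (from -0.46 to -0.57, adjusted p from 0.0517 to 0.0770).

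Markers of oligodendrocytes, the myelinating cells, moved with Hapln2. Of 10 such markers, 6 were lower in D2, none was higher, and their summed level was 4702 to 6707 CPM in B6 and 3521 to 5154 CPM in D2, with B6 replicates 3 and 5 highest. With the mean log2 level of these markers as a covariate, the log2 fold change of Hapln2 was -0.01 (adjusted p = 0.974, edgeR). The 3 genes whose pattern over the 10 mice was nearest to that of Hapln2 were Mobp, Cryab and Gjb1, with root mean square differences of 0.059, 0.080 and 0.091 on the log2 scale after centring, out of 15388 genes searched. Mobp, which is itself 1 of the 10 markers, encodes a myelin protein, Gjb1 a gap junction protein of oligodendrocytes and Cryab a small heat shock protein. The covariate itself differed between the strains, and with it 3199 of all genes passed in place of 5478. In bulk tissue, fewer oligodendrocytes and less RNA per oligodendrocyte cannot be told apart, nor can a difference in Hapln2 itself. The part of oligodendrocytes in the Hapln2 difference was not tested beyond the covariate.

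Hapln4 encodes the brain-specific link protein that pairs with brevican at inhibitory synapses and in nets, and it did not pass the test. Hapln4 (ENSMUSG00000007594, chr8:70536106-70543533, plus strand) was at 43.3, 47.7, 64.9, 36.6 and 67.7 CPM in B6 and at 82.9, 52.6, 64.3, 57.04 and 66.2 CPM in D2. B6 replicates 3 and 5 lay among the D2 mice, the other 3 B6 mice lay below all D2 mice, and D2 replicate 1 was highest. The log2 fold change was 0.31 ± 0.17 (SE, adjusted p = 0.242, edgeR) over all mice and 0.60 (adjusted p = 0.00515, edgeR) without B6 replicates 3 and 5. The mean log2 level of 12 markers of interneurons, the cells that carry most nets, was 5.98 to 6.03 in B6 replicates 1, 2 and 4, 6.24 and 6.25 in B6 replicates 3 and 5, and 6.22 to 6.35 in D2, and with it as a covariate the Hapln4 difference was -0.21 (adjusted p = 0.153, edgeR). The markers did not move as 1 group. In B6 replicates 3 and 5, Cck (76.9 and 70.1 CPM against 11.3 to 18.9 in the other B6 mice) and Vip were higher, whereas Lhx6 (21.9 and 22.6 CPM against 32.6 to 47.4), Gad1 and Gad2 were lower, all 5 being named after their values were seen.

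Of the 12 interneuron markers, 2 were higher in D2 and none lower. The 2, named here after their values were seen, were Gad1, which makes the transmitter GABA, at 0.23 (adjusted p = 0.0358, edgeR) and Syt2, a calcium sensor of fast inhibitory terminals, at 0.49 (adjusted p = 0.0462, edgeR). The summed level of all 12 was 1895 to 2251 CPM in B6 and 2031 to 2474 CPM in D2, and thus lowest in B6 replicates 3 and 5. Gad1 and Gad2 were the highest of the 12, with B6 means of 628 and 716 CPM. Both make GABA, which the striatal projection neurons also use, so they do not single out interneurons. The sum and the covariate carry that limit. Pvalb, the defining marker of the neurons with nets, was at 8.62 to 11.2 CPM in B6 and 8.77 to 17.9 CPM in D2 (log2 fold change 0.45, adjusted p = 0.0739, edgeR). The part of these markers in the Hapln4 values was not tested beyond the covariate.

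**Figure D2:**
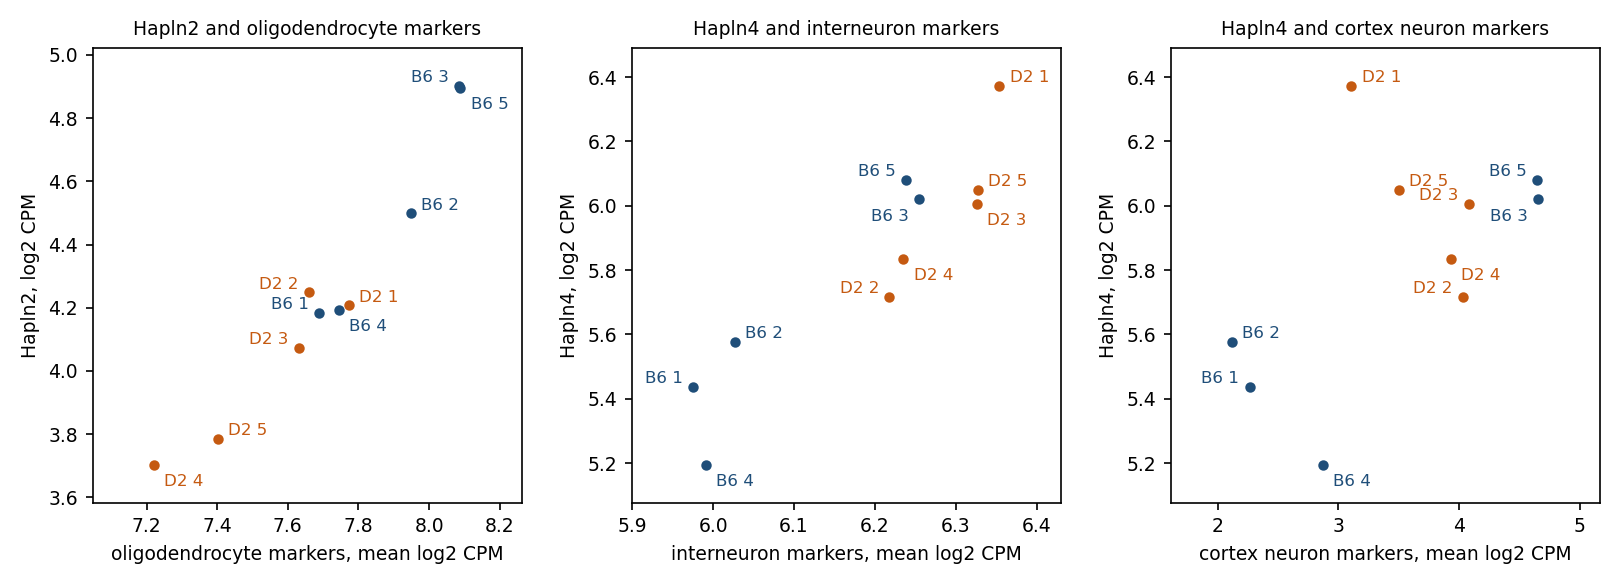
Log2 CPM of Hapln2 against the mean log2 CPM of 10 oligodendrocyte markers (left), and of Hapln4 against that of 12 interneuron markers (middle) and 10 cortex neuron markers (right), with 1 labelled point per mouse (B6 blue, D2 orange). B6 replicates 3 and 5 are highest for Hapln2 and for the oligodendrocyte and cortex neuron markers, and they lie among the D2 mice for Hapln4.

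Because shares within a family do not depend on the scaling of a library, the makeup of each family was also compared within each mouse, per kilobase of exon. The share of Hapln4 among the 3 link proteins was 63.2, 63.4, 65.0, 59.6 and 66.9% in B6 and 76.4, 67.7, 72.4, 73.5 and 75.5% in D2. The share of Hapln2 was 20.4, 23.1, 23.0, 22.9 and 22.6% in B6 and 13.1, 18.8, 14.6, 12.9 and 12.1% in D2. Neither share overlapped between the strains, and B6 replicates 3 and 5, which stood apart in the level of either gene, lay with the other B6 mice in the share of Hapln2.

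The mean share of Hapln4 rose from 63.6% ± 2.696 (SD, n = 5) in B6 to 73.1% ± 3.39 (SD, n = 5) in D2, a difference of 9.48 percentage points. The mean share of Hapln2 fell from 22.4% ± 1.14 in B6 to 14.3% ± 2.68 in D2. Both differences had p = 0.0079 in a two-sided exact permutation test, the smallest p that the 252 assignments of 5 and 5 mice allow, and an adjusted p of 0.0159 over the 8 makeup values compared in exact tests. Without B6 replicates 3 and 5 they were 11.02 and -7.82 percentage points (adjusted p = 0.0476 each, exact permutation test). The 2 shares are parts of the same whole and are not independent. The share of Hapln1 was 10.55 to 17.58% in B6 and 10.58 to 13.59% in D2 and did not pass the exact permutation test (adjusted p = 0.435).

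**Figure D3:**
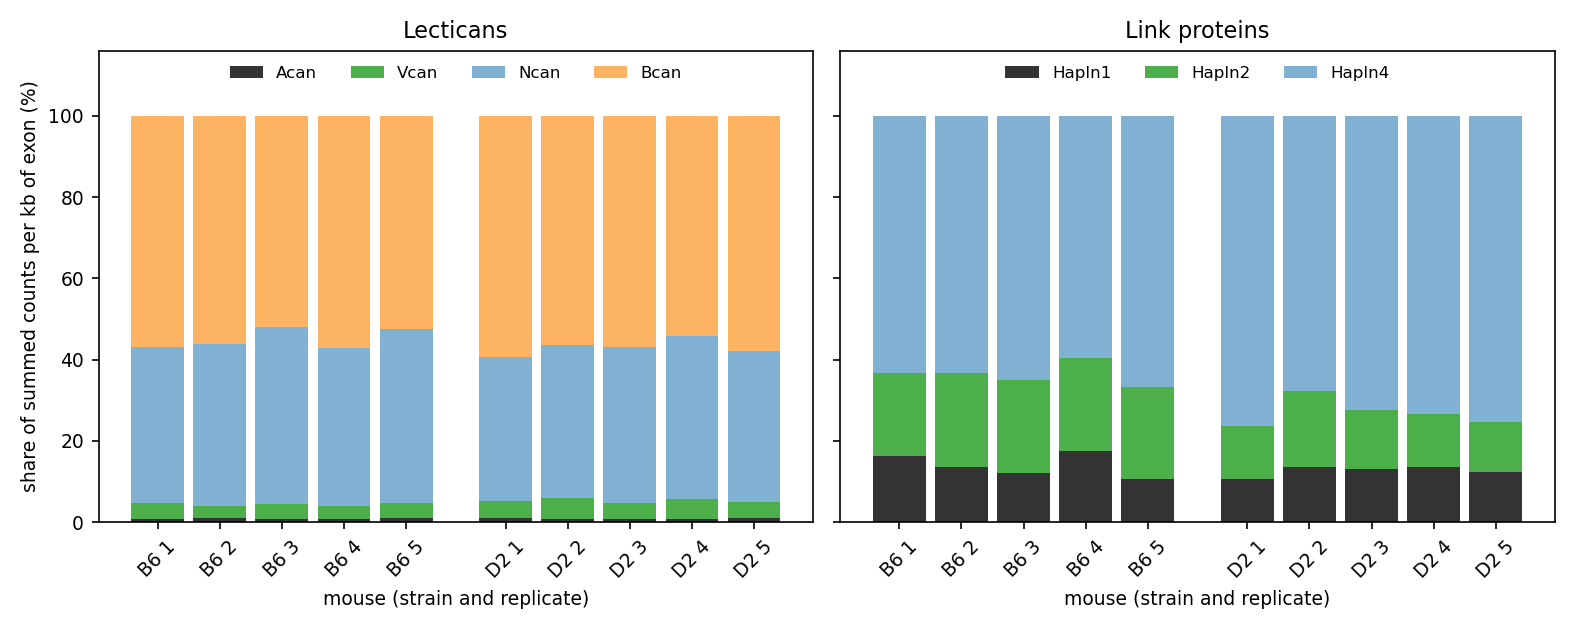
Stacked bars of each lectican (left) and each link protein (right) as a share in percent of the summed counts per kb of exon of its family, with 1 bar per mouse. Hapln4 makes up 59.6 to 66.9% of the link protein counts in B6 and 67.7 to 76.4% in D2, and Hapln2 makes up a smaller share in every D2 mouse than in every B6 mouse.

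Among the lecticans, Bcan and Ncan made up nearly all counts per kilobase. The share of Bcan was 54.9% ± 2.51 in B6 and 56.98% ± 1.91 in D2 (adjusted p = 0.233, exact permutation test), and that of Ncan was 40.8% ± 2.39 in B6 and 37.7% ± 1.68 in D2 (adjusted p = 0.0889, exact permutation test). The share of Acan was 0.888% ± 0.142 in B6 and 0.892% ± 0.154 in D2 (adjusted p = 0.944, exact permutation test). The share of Vcan was higher in every D2 mouse than in every B6 mouse, at 3.43% ± 0.32 in B6 and 4.41% ± 0.66 in D2 (adjusted p = 0.0159, exact permutation test). The lectican shares are also parts of the same whole, and Bcan and Ncan, which make up most of it, were lower in D2. The level of Vcan itself did not pass the test (log2 fold change 0.15, adjusted p = 0.319, edgeR). The share of Vcan passed the threshold no longer without B6 replicate 2 (difference of 0.866 percentage points) or without B6 replicate 4 (0.932). Each had an adjusted p of 0.0635 in the exact permutation test. Without B6 replicates 3 and 5 the share of Vcan did not pass either (1.10 points, adjusted p = 0.114, exact permutation test). With 1 mouse left out there were 126 assignments, against 252, but the smallest possible p was 0.0079 in the exact permutation test with either number. With any 1 D2 mouse left out, the share of Vcan kept its call (adjusted p = 0.0159, exact permutation test). The strains still did not overlap in the subsets in which the share of Vcan did not pass.

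The tenascins, glycoproteins that form trimers or hexamers, had log2 fold changes of opposite sign, and Tnc passed the test. Tnc encodes tenascin-C, which is abundant in the developing brain and after injury and scarce in the adult. Tnc (ENSMUSG00000028364, chr4:63878014-63965443, minus strand) was at 3.73, 3.19, 2.52, 3.16 and 2.78 CPM in B6 and at 4.54, 4.78, 4.28, 4.16 and 4.46 CPM in D2. The D2 mice all exceeded the highest B6 mouse, with a log2 fold change of 0.53 ± 0.099 (SE, adjusted p = 0.00208, edgeR), or a D2 mean 44.4% above that of B6. The difference passed the threshold with any 1 mouse left out and without B6 replicates 3 and 5, where it was 0.40 (adjusted p = 0.00681, edgeR). With oligodendrocyte markers as a covariate it no longer passed (0.43, adjusted p = 0.0646, edgeR), whereas Ncan did (-0.28, adjusted p = 0.0161, edgeR). These markers themselves differed between the strains, and with them as a covariate 3199 of all genes passed in place of 5478. The part of oligodendrocytes in the Tnc difference was not tested beyond the covariate.

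Tnr encodes tenascin-R, the cross-linker of the nets, made by oligodendrocytes and some neurons. Tnr (ENSMUSG00000015829, chr1:159351339-159759299, plus strand) was at 272, 265, 266, 236 and 264 CPM in B6 and at 251, 217, 243, 240 and 233 CPM in D2. B6 replicate 4 lay among the D2 mice, apart from the other 4 B6 mice, and the log2 fold change was -0.14 ± 0.048 (SE, adjusted p = 0.0662, edgeR). It passed the threshold without B6 replicate 4 (-0.17, adjusted p = 0.0168, edgeR) and without D2 replicate 1 (-0.16, adjusted p = 0.0487, edgeR). Within each mouse, reads of Tnr exceeded those of Tnc by a log2 ratio of 6.19 to 6.73 in B6 and of 5.50 to 5.85 in D2. These ranges did not overlap, and the geometric mean ratio of reads was 85.4 in B6 and 53.3 in D2 (adjusted p = 0.0159, exact permutation test).

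Ptprz1 encodes a receptor phosphatase of astrocytes and oligodendrocyte precursors, and phosphacan, its secreted form and a ligand of tenascin-R, comes from the same gene. Counts per gene do not separate the forms. Ptprz1 (ENSMUSG00000068748, chr6:22875358-23054236, plus strand) was at 340, 301, 281, 294 and 275 CPM in B6 and at 345, 320, 312, 350 and 304 CPM in D2. B6 replicate 1 lay among the highest D2 mice and the other 4 B6 mice lay below all D2 mice, with a log2 fold change of 0.13 ± 0.060 (SE, adjusted p = 0.178, edgeR). Without B6 replicate 1 the value was 0.18 and passed the threshold (adjusted p = 0.0246, edgeR).

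Set against each other per kilobase of exon, the levels of the 10 genes fell into steps. The length used was that of all annotated exons of a gene together. It was 18746 bp for Ptprz1, whose longest transcript has 9532 bp, and 13525 bp for Tnr, whose longest transcript has 12395 bp. The order and the overlaps below hold for this length only, and they can change with another. In B6, Bcan was highest at 37.0 ± 1.70 CPM per kb (SD, n = 5), followed by Ncan at 27.5 ± 1.87. Tnr at 19.3 ± 1.03, Ptprz1 at 15.9 ± 1.37 and Hapln4 at 12.99 ± 3.40 CPM per kb came next, and the ranges over mice overlapped between Tnr and Ptprz1 and between Ptprz1 and Hapln4. Hapln2 at 4.55 ± 1.12 CPM per kb lay above Hapln1 at 2.74 ± 0.17 and Vcan at 2.31 ± 0.24, whose ranges overlapped. Acan at 0.598 ± 0.090 and Tnc at 0.386 ± 0.058 CPM per kb were lowest.

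In D2 the order of the first 8 was the same, with Bcan at 33.2 ± 1.91 and Ncan at 21.96 ± 0.63 CPM per kb. Tnr at 17.5, Ptprz1 at 17.4 and Hapln4 at 16.1 CPM per kb were not separated beyond their ranges, nor were Hapln2 at 3.11, Hapln1 at 2.74 and Vcan at 2.56. Tnc at 0.557 ± 0.030 lay beside Acan at 0.521 ± 0.104 CPM per kb, with overlapping ranges, whereas all B6 mice had less Tnc than Acan per kb. The spread between mice also differed between the genes. The highest mouse exceeded the lowest by 1.13 times for Bcan and by 1.85 times for Hapln4 in B6.

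Each lectican gene lies next to a link protein gene in the genome, and the strain differences were compared within these pairs. Bcan and Hapln2 lie 16622 bp apart on the same strand of chromosome 3, and both were lower in D2. Vcan and Hapln1 lie 43480 bp apart on chromosome 13, and neither passed the test. Acan is paired with Hapln3, a further link protein gene with little expression in brain, whose gene ends 2 bp from it on chromosome 7. Hapln3 was at 1.61 to 1.84 CPM in B6 and 1.78 to 2.23 CPM in D2, with overlapping ranges (log2 fold change 0.19 ± 0.087, SE, adjusted p = 0.167, edgeR).

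Ncan and Hapln4 overlap on opposite strands of chromosome 8 and share 1255 bp of exon. The libraries were made with a stranded kit, but the strand setting of the counting is not given in the sources used here. Reads from the shared bases cannot be assigned between the 2 genes with certainty, and the log2 fold changes of -0.32 for Ncan and 0.31 for Hapln4 carry that limit. The shares and the levels per kilobase of both genes carry it too, since the shared bases are part of the 4008 bp of exon of Hapln4. Acan likewise shares 378 bp of exon with the antisense RNA gene Gm26633. Further antisense RNA genes share 303 bp of exon with Tnc, 195 bp with Hapln2 and 143 bp with Ncan. Tnr shares 299 bp and 443 bp with 2 such genes.

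The stretches in front of the starts of Ncan and Hapln2 are shown because each is the lower member of its pair by fold change. Most of the 250 bp upstream of each start also lies outside annotated exons. They come from the RefSeq promoter table (GRCm38.p6) and were matched once each to GRCm39, and both are written 5′ to 3′ on the minus strand, the strand of the genes. Capitals mark the GC box (GGGCGG) in Ncan and the CCAAT box (CCAAT) in Hapln2. The TATA box (TATAA) was also searched and was found on both strands of the Ncan window. It lay in the 29 bp next to the listed start, which are annotated as exon and not printed. For Ncan the stretch is chr8:70573524-70573744 and for Hapln2 it is chr3:87934891-87935068.
Ncan: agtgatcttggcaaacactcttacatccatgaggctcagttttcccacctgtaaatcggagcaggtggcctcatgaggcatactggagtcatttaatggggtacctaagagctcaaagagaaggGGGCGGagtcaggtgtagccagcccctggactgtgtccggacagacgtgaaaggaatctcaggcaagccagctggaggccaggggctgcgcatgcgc
Hapln2: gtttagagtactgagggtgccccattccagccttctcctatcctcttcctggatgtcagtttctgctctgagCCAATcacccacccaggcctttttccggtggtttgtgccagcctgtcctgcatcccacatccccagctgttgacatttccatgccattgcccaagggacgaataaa
Searched on both strands over 250 bp, GGGCGG was found in 32.7% of the 32851 RefSeq promoter windows, CCAAT in 33.8% and TATAA in 22.8%. Each motif is thus common and its presence is a description only. The window of Bcan lay within annotated exons and that of Tnc mostly so, and neither is printed.

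The genes around each lectican, coding or not, were also compared where their counts averaged 100 or more, for which 23.8% of all genes passed the test. Within 500 kb of Ncan, 19 of 39 passed, 9 higher and 10 lower in D2, and around Bcan 11 of 30 did, 4 higher and 7 lower. Around Acan 7 of 19 passed, 4 higher and 3 lower, and around Vcan 1 of 4. Whether these shares differ from that over all genes was not tested. Of the nearest protein-coding neighbours, Nes (nestin, an intermediate filament of neural stem cells), 7076 bp from Bcan, had a log2 fold change of -0.28 (adjusted p = 0.0144, edgeR), and Gpatch4, 15513 bp from Hapln2, one of 0.16 (adjusted p = 0.0280, edgeR). Nr2c2ap, 10435 bp from Ncan, was at 0.25 (adjusted p = 0.00273, edgeR), Cop1 next to Tnr at -0.30 (adjusted p = 0.000313, edgeR) and Isg20 next to Acan at -1.11 (adjusted p = 0.00253, edgeR). The nearest neighbours of Vcan, Hapln1, Hapln4, Tnc and Ptprz1 other than matrix genes did not pass the test.

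**Figure D4:**
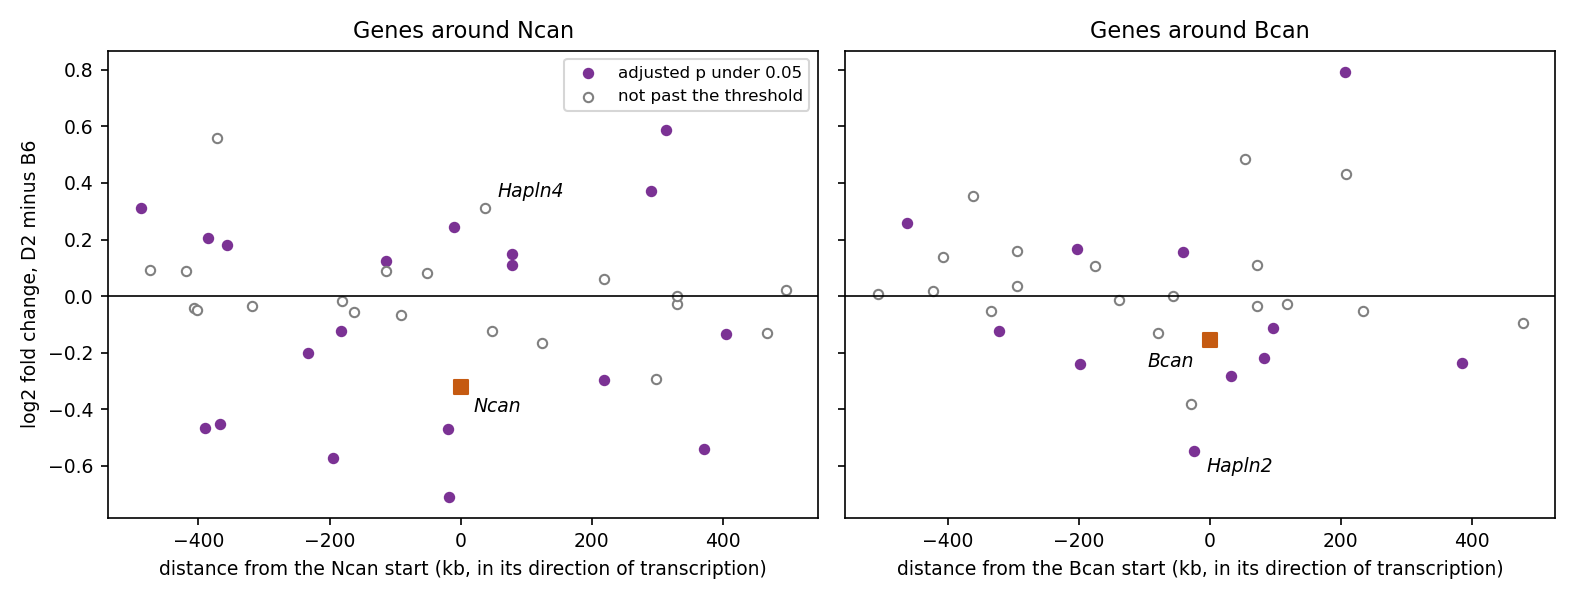
Log2 fold change (D2 minus B6) of genes averaging 100 counts or more, coding or not, against the distance of their start from the start of Ncan (left) or Bcan (right), in kb along the direction of transcription. Genes within 500 kb of either end of Ncan or Bcan are drawn. Filled points passed an adjusted p of 0.05 (edgeR), open points did not, and squares mark Ncan and Bcan. Around Ncan, 9 genes were higher and 10 lower, and around Bcan 4 were higher and 7 lower.

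The pattern over the 10 mice that was nearest to that of Ncan belonged to Cop1, an E3 ubiquitin ligase gene on chromosome 1, with a root mean square difference of 0.024 on the log2 scale after centring, followed by Ankrd45 at 0.044 and Cep19 at 0.045. For Bcan the nearest were Mtln (0.032), Vwa8 (0.036) and Tmem208 (0.037), and for Tnc they were As3mt, Dnajc17 (0.091 each) and Zfp955a (0.096). No matrix gene of the lists below was among them.

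A further 100 genes for the making, breakdown and binding of the matrix were examined, of which 99 were in the table. Of the 99, 12 were higher in D2, 15 were lower and 72 did not pass the test, so 27.3% were called, close to the 23.8% of genes whose counts averaged 100 or more. Their median log2 fold change was 0.01. Without B6 replicates 3 and 5, 22 were higher and 13 lower.

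Of 9 genes for hyaluronan, the backbone of the nets, 1 was higher and 1 lower in D2. Both encode hyaluronan synthases. Has1 was at 1.47 to 2.03 CPM in B6 and 2.60 to 3.07 CPM in D2 (log2 fold change 0.80 ± 0.099, SE, adjusted p = 7.66e-05, edgeR), and Has3 at 6.12 to 9.02 CPM in B6 and 4.58 to 6.82 CPM in D2 (-0.57 ± 0.13, SE, adjusted p = 0.00832, edgeR). The strains did not overlap for Has1, and they did for Has3.

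Of 22 genes for chondroitin sulfate synthesis, which builds the sugar chains of the lecticans, 1 was higher and 4 were lower, and their median log2 fold change was -0.03. B3galt6, a galactosyltransferase of the linker that joins the chain to the protein, was at -0.43 (adjusted p = 0.000734, edgeR), and Fam20b, the kinase of the xylose in that linker, was at 0.24 (adjusted p = 0.000378, edgeR). Csgalnact1, which adds the first galactosamine of the chain, was at -0.26 (adjusted p = 0.00739, edgeR). The other lower genes, named after their values were seen, were Chsy1, a chain polymerase (-0.19, adjusted p = 0.00947, edgeR), and Dsel, a dermatan sulfate epimerase (-0.15, adjusted p = 0.0368, edgeR).

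Of 20 matrix proteases and inhibitors, 2 were higher and 3 lower. Adamts4, a protease that cleaves lecticans and is made in part by oligodendrocytes, had the largest difference of the 5, at 32.2 to 46.6 CPM in B6 and 16.1 to 24.2 CPM in D2, without overlap (log2 fold change -0.94 ± 0.13, SE, adjusted p = 0.000157, edgeR). Mmp15, a membrane metalloprotease, was at 0.59 (adjusted p = 0.00194, edgeR), and Serpine2, a secreted inhibitor of serine proteases, at -0.38 (adjusted p = 0.000181, edgeR). Adamts9 at 0.30 and Plat at -0.24 also passed and were named after their values were seen (adjusted p = 0.0284 and 0.0119, edgeR).

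Of 20 receptors and ligands of the matrix, 3 were higher and 3 lower. Cd44, the hyaluronan receptor, was at 1.496 to 2.85 CPM in B6 and 3.73 to 5.00 CPM in D2, without overlap (log2 fold change 0.93 ± 0.16, SE, adjusted p = 0.00107, edgeR). Sema3a, a guidance protein held in nets by chondroitin sulfate, was at -0.35 (adjusted p = 0.00363, edgeR), and Ptn, pleiotrophin, a ligand of Ptprz1, at -0.27 (adjusted p = 0.0251, edgeR). Among the receptors of chondroitin sulfate, which were named after their values were seen, Ptprf was at 133.7 to 140.0 CPM in B6 and 156.3 to 160.4 CPM in D2, without overlap (0.20 ± 0.027, SE, adjusted p = 0.000149, edgeR). Ptprs and Rtn4r did not pass the test (adjusted p = 0.117 and 0.906, edgeR). Itgb1, an integrin subunit, was at 0.12 (adjusted p = 0.0148, edgeR) and Nfasc, a protein of the nodes of Ranvier, at -0.23 (adjusted p = 0.0346, edgeR).

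Of 28 other brain matrix genes, 5 were higher and 4 lower. The 3 with the largest differences were the small proteoglycan Dcn at 0.64 (adjusted p = 0.0104, edgeR), the thrombospondin Thbs2 at 0.53 (adjusted p = 0.00907, edgeR) and the tenascin Tnxb at 0.46 (adjusted p = 0.000207, edgeR). Dcn is also a marker of meningeal fibroblasts. Of the 5 markers of these cells, 2 were higher in D2, Dcn itself and Col3a1, and none was lower. Their summed level was 20.1 to 32.3 CPM in B6 and 28.5 to 48.7 CPM in D2. The part of fibroblast RNA in these differences was not tested.

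**Figure D5:**
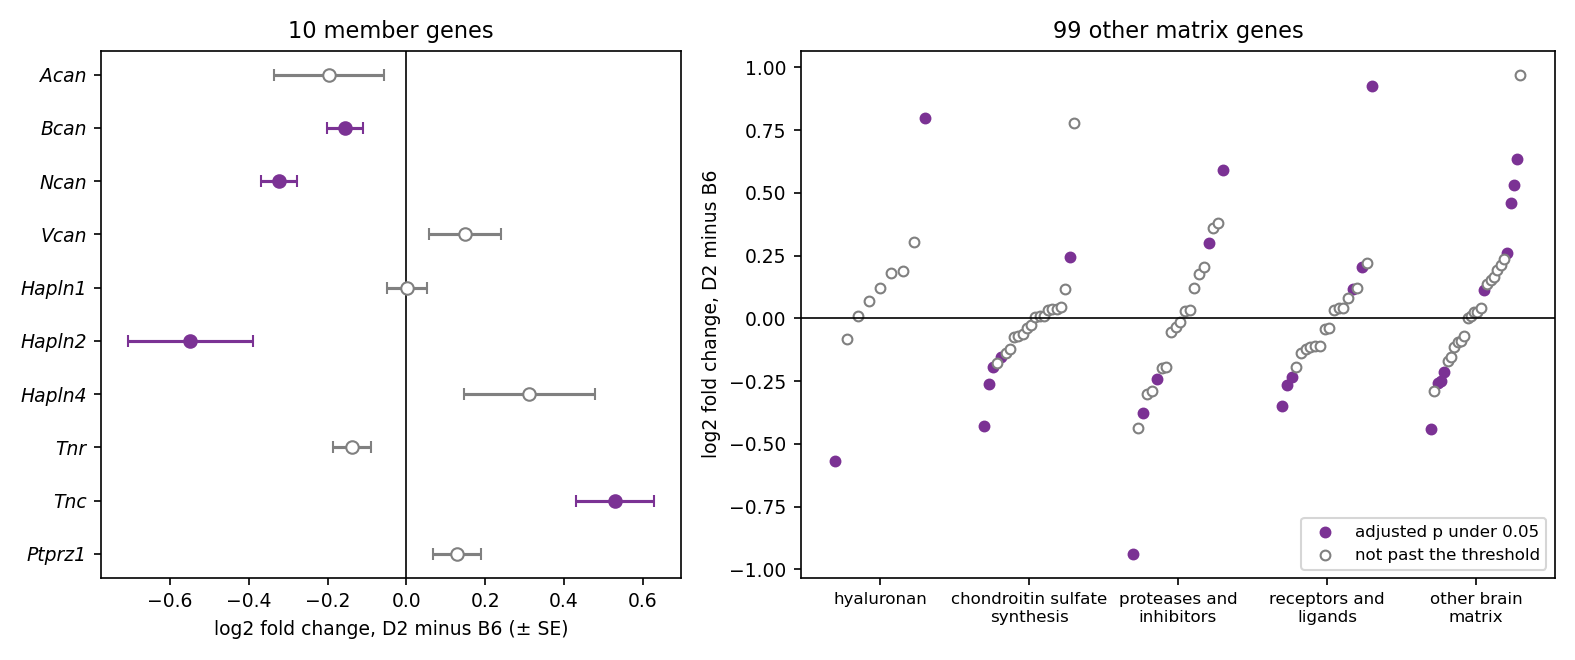
Log2 fold changes (D2 minus B6) of the 10 perineuronal net and brain matrix genes with their SE (left) and of 99 other matrix genes in 5 lists, ordered by value within each list (right). Filled points passed an adjusted p of 0.05 (edgeR), 4 of 10 on the left and 27 of 99 on the right. Ncan, Bcan and Hapln2 lie left of 0 and Tnc right of it.

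Markers of other cells in the dissected tissue moved as follows. Of 10 markers of the striatal projection neurons that define this region, 6 were lower in D2 and none higher (median -0.30), with 4888 to 6272 CPM in B6 and 4121 to 4988 CPM in D2, so the markers of this region were abundant in all 10 mice. Of the 10 cortex neuron markers, 0 passed in edgeR, 1 had an unadjusted p under 0.05 and 0 passed in DESeq2. Of 9 astrocyte markers, 1 was higher and 3 were lower, and of 7 markers of oligodendrocyte precursors, the cells that make much Vcan and Ptprz1, none was higher and 2 were lower, with summed levels of 316 to 364 CPM in B6 and 297 to 349 CPM in D2. The 2 lower precursor markers, named after their values were seen, were Olig1 (-0.26) and Sox10 (-0.35). Pdgfra, Cspg4, Olig2, Gpr17 and C1ql1 did not pass, and the median log2 fold change of the 7 was 0.01. Of 6 microglia markers, 1 was higher and 1 lower, and of 5 ependyma and choroid plexus markers 1 was lower. Of 5 endothelium markers, 0 passed in edgeR, 2 had an unadjusted p under 0.05 and 2 passed in DESeq2, and of 6 neuroblast markers all 3 counts were 0. With the cortex neuron markers as covariate, Tnr (-0.14, adjusted p = 0.0402, edgeR) and Ptprz1 (0.16, adjusted p = 0.0179, edgeR) passed the test, and the calls of Ncan, Bcan, Hapln2 and Tnc were kept. The part of the other cell types of this paragraph in the differences of the matrix genes was not tested.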

How the data were processed

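According to the methods, reads were trimmed (fastp), aligned to Ensembl GRCm39 (STAR 2.7.10b), sorted (SAMtools 1.6) and assigned to genes (featureCounts) by the authors. The deposited table holds these raw counts for 29883 genes, from which genes with a median of 0 had been removed. Symbols, coordinates and exon lengths came from GENCODE vM39 on GRCm39.

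All genes were fitted with edgeR 4.0.16 in R 4.3.3 (two-sided quasi-likelihood F test after TMM scaling, strain as the only factor). P-values were adjusted over all genes by Benjamini-Hochberg, with a threshold of 0.05. An SE is the size of the log2 fold change over the square root of F. Shares and ratios were tested by exact permutation over 252 assignments. Fits were tested on simulated data, in which small changes were often missed. DESeq2 1.42.0, other scalings and filters, marker levels as covariates, a replicate block and each mouse left out were tried as alternatives. Members, lists and tests were chosen with earlier results of these data known. Named genes were all members, Hapln3, in each list the 3 largest called changes averaging 100 counts or more, the nearest protein-coding neighbours and the 3 nearest patterns of each called member. The 11 marker lists held 85 genes. Mmp3 was not analysed here.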

Additional observations from a re-analysis of the deposited data

Results flagged for a closer look

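Over 36 groups of 5 values tested, 2 had a single mouse far from the others, where chance gives about 1 in 20 groups. Tnr in B6 replicate 4 stood at 236.2 CPM, below the 263.8 to 271.8 CPM of the other B6 mice. The share of Hapln2 among the link proteins in B6 replicate 1 was 20.38%, below the 22.58 to 23.09% of the other B6 mice and above the 12.1 to 18.8% of the D2 mice. No cause was tested for either value.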

How the results depend on the processing

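Of 194 results recomputed under alternatives other than single mice left out, 159 kept their direction and side of the threshold or, as counts, stayed within 1.5 times. Ncan passed under all of them, and Tnc under all but 1. The number of matrix genes higher in D2 was 2 without B6 replicates 3 and 5 (an alternative chosen after seeing the data) and with cortex neuron or interneuron markers as covariate, and the number lower was 1 in the exact permutation test, with oligodendrocyte markers as covariate and at an adjusted p of 0.01. The other matrix genes higher numbered 22 without those mice and 7 at 0.01, and those lower numbered 27 with the cortex markers, 8 in the exact permutation test, 6 with the oligodendrocyte markers and 8 at 0.01. Bcan lost its call in the exact permutation test (-0.157), with interneuron (-0.127) or oligodendrocyte markers (-0.147) and under total counts (-0.126). The exact permutation test called 4787 genes, the same number as those without overlap between the strains. Genes with overlapping strains, such as Bcan and Hapln2, thus could not pass it. Hapln2 lost its call without B6 replicates 3 and 5 (-0.279), in the exact permutation test (-0.530) and with oligodendrocyte markers (-0.0098), and Tnc with oligodendrocyte markers (0.432). Over all genes, 3199 passed with oligodendrocyte, 6378 with interneuron and 7818 with cortex neuron markers as covariate, in place of 5478. Hapln4 passed at 0.601 without those mice and at 0.741 with oligodendrocyte markers, and turned to -0.209 with interneuron markers. Tnr passed with cortex (-0.137) or interneuron markers (-0.195), and so did Ptprz1 (0.163 and 0.254). Hapln1 turned to -0.0018 with at least 10 counts in every sample, -0.0042 with filterByExpr, -0.0073 with cortex and -0.072 with interneuron markers, and Acan to 0.066 with oligodendrocyte markers. Without B6 replicates 3 and 5, the difference in the share of Vcan was 1.10 points and did not pass, and that of Acan was -0.0014. The cause was not tested in any of these.

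With 1 mouse left out, the number of matrix genes higher was 1 to 2 and lower 1 to 4. The log2 fold changes spanned -0.186 to -0.131 for Bcan, -0.024 to 0.030 for Hapln1, -0.631 to -0.457 for Hapln2, -0.172 to -0.108 for Tnr and 0.094 to 0.181 for Ptprz1, and the differences in shares spanned -0.055 to 0.055 points for Acan and 0.793 to 1.13 for Vcan. Scaling by total counts moved the share of lower genes among all calls from 53.6 to 45.04%.

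The replicate numbers only name the mice, as deviations of same-numbered mice correlated between -0.3999 and 0.366 over genes, and not every mouse correlated best with its own number. With the number as a block, 4731 genes passed in place of 5478, and Bcan lost its call (-0.157). Depth limits mainly Acan and Tnc, with means of 467 and 410 counts.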
